A study of Homo sapiens with 12 samples.

Results

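The genes described here are 36 genes of cholesterol and fatty-acid synthesis and its control, chosen by symbol from the 60240 genes of a normalised count table made from HL-60 cells. They comprise 18 enzymes of sterol synthesis, 6 genes of the sterol-sensing SREBP system, 7 enzymes of fatty-acid synthesis and 5 genes of sterol efflux and the LXR receptors. HL-60 is an established human promyelocytic leukaemia line, and all cells were of wild-type genotype. The groups were decitabine at 6 h, DMSO at 6 h, decitabine at 72 h, DMSO at 72 h, decitabine at 120 h and DMSO at 120 h. Decitabine, a nucleoside drug that depletes DNA methyltransferases once incorporated during replication, was given at 100 nM at 0, 24 and 48 h, per the labels' protocols, so that the 6 h cells had received only the first addition. DMSO, the vehicle, served as control at each time. Each group had 2 wells of this line, seeded at 100000 cells per mL, of which 11 libraries were analysed, with 1 for DMSO at 72 h.

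Duplicate wells came from a single line, and no label describes them as independent passages. The p-values below therefore reflect the spread between these libraries alone, and that spread may be technical. Estimated depth was 14427331 to 32908419 counts per library, if the most common low value stands for 1 count. The column names of the table were read as starting at the symbol, and every value below rests on that reading. The decitabine 72 h libraries lay farther apart than any other pair of one group, with a median absolute log2 difference of 0.59 against 0.19 to 0.26. Decitabine 72 h replicate 2 lay 0.59 to 0.73 from every other library, while replicate 1 lay 0.31 and 0.30 from the decitabine 120 h libraries. All groups share one estimate of the spread in the main fit, so this pair enters it for every comparison. The transcript FP671120.7 took 3.89 to 10.86% of counts in all 4 libraries at 120 h and in decitabine 72 h replicate 1, and at most 0.794% in the other 6, so that at 72 h the decitabine pair is split between both sides. The myeloid genes used to check the line (MPO, ELANE, PRTN3, AZU1, CTSG, CD33, SRGN and LYZ) were above 0 in every group, and 9 liver and fat-cell genes summed to at most 22.7 normalised counts per library. In bulk RNA, fewer cells of a type and less RNA per cell cannot be told apart.

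Cells build cholesterol from acetyl-CoA by way of mevalonate, squalene and lanosterol, and build fatty acids from the same precursor. Both routes are switched on by the SREBP transcription factors, which SCAP carries out of the endoplasmic reticulum when sterols are low and which INSIG proteins hold back when sterols are high. The LXR receptors sense oxidised sterols and switch on export pumps such as ABCA1, which in myeloid cells is best known from cholesterol-loaded macrophages.

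At 120 h, decitabine-treated HL-60 cells held less mRNA of several lipid synthesis enzymes than DMSO cells and more of the sterol exporter ABCA1. Acetyl-CoA carboxylase (ACACA) was 3.04-fold lower, stearoyl-CoA desaturase (SCD) 2.76-fold lower and HMG-CoA synthase (HMGCS1) 1.99-fold lower, whereas ABCA1 was 4.35-fold higher (ratios of group means, n = 2 each). Here and below, fell and rose mean lower and higher in decitabine than in DMSO cells of the same time, not a change over time. Of the 35 members that passed the filter on low values, 8 fell and 2 rose at an adjusted p under 0.05 in limma, a linear model fitted across all 16152 genes tested. That is 28.6% of members called, against 15.9% of all genes. In all genes 6% were called lower and 9.91% higher, so that 62.3% of calls were higher, a share of 50.8% with quantile normalisation and of 73% with libraries scaled to one total. A total of 29 of 35 members had a negative log2 fold change (82.9%), against 45.8% of all genes, and the median was -0.49, against 0.07 over all genes. In 23 members every decitabine library lay below every DMSO library, which held for 30.6% of all genes, and in 4 every one lay above (36.1% of all genes). ABCG1 was the member under the filter, at 0 to 3.14 normalised counts in every library.

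**Figure D1:**
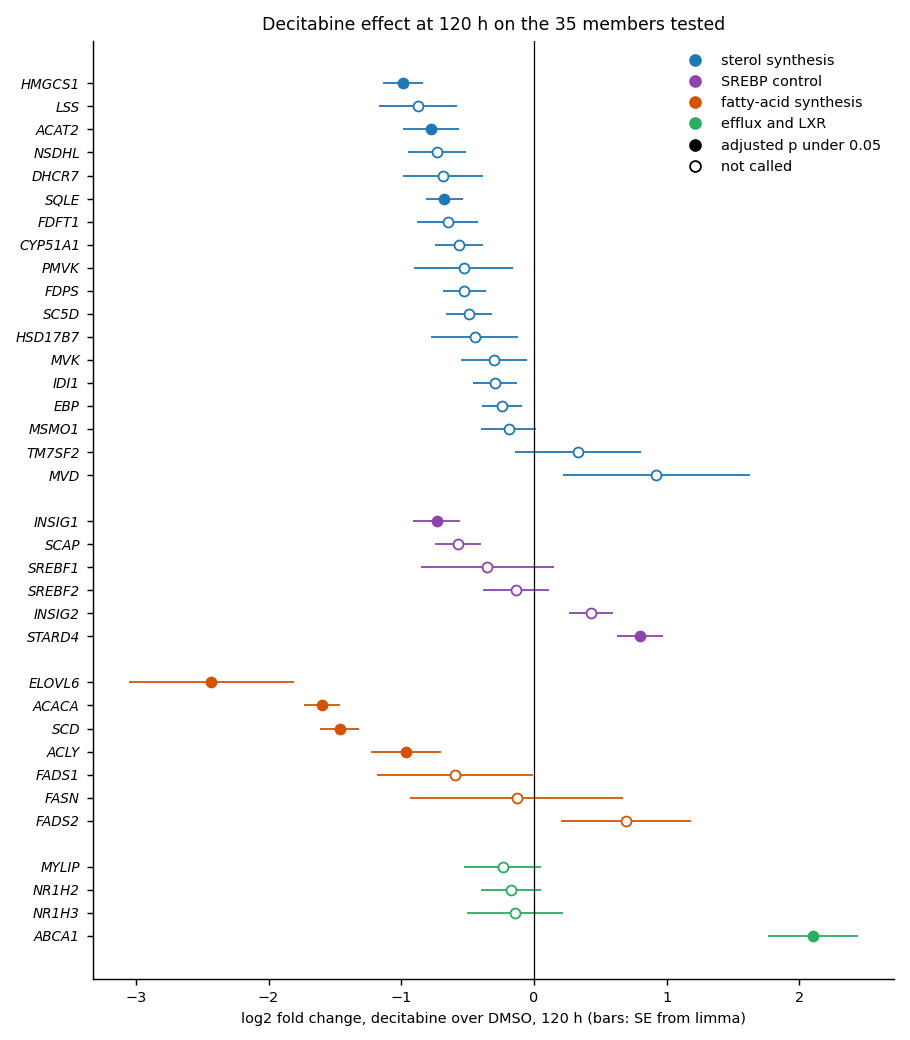
Log2 fold change of the 35 tested members at 120 h, decitabine over DMSO on the log2(value + 1) scale, grouped by role; bars are standard errors from limma and filled points passed an adjusted p under 0.05. Of the enzymes, 16 of 18 for sterols and 6 of 7 for fatty acids lie left of 0, while ABCA1 stands alone at 2.10.

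The fatty-acid enzymes held the most negative values. ACACA, which makes malonyl-CoA for chain growth, stood at 503 and 520 normalised counts in decitabine cells, against 1488 and 1618 in DMSO cells at 120 h. Its log2 fold change was -1.60 (SE 0.138, limma adjusted p = 0.000313). SCD, which puts the double bond into saturated fatty acids, stood at 1679 and 1760 in decitabine cells, against 4451 and 5057 in DMSO cells (log2 fold change -1.46, SE 0.147, limma adjusted p = 0.000562). For both genes the replicates lay close together and the groups were far from overlapping.

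ACLY, which cuts citrate to cytosolic acetyl-CoA, stood at 1909 and 1603 normalised counts in decitabine cells, against 2966 and 3944 in DMSO cells (log2 fold change -0.97, SE 0.263, limma adjusted p = 0.0401). ELOVL6, an elongase of long-chain fatty acids, stood at 22 and 29.6, against 64.2 and 314. The DMSO replicates of ELOVL6 differed 4.90-fold, and its log2 fold change of -2.43 (limma adjusted p = 0.0321) became -1.29 without DMSO 120 h replicate 2 (limma adjusted p = 0.093). The ELOVL6 call was lost in 7 of 11 fits that omit a library (limma adjusted p 0.0517 to 0.171) and in 4 of 11 other settings, the 4 libraries at 120 h alone among them. The ACLY call was lost without any one of the 4 libraries at 120 h or either DMSO 6 h library, with limma adjusted p between 0.0713 and 0.222.

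Of the 7 fatty-acid enzymes, 4 fell, 3 were not called, and 0 rose (0 also at an unadjusted p under 0.05). That is 57.1% called, against 15.9% of all genes. Their median log2 fold change was -0.97. The 3 without a call were FASN, FADS1 and FADS2. FASN, the synthase itself, stood at 2390 and 311 in decitabine cells, against 1307 and 683 in DMSO cells at 120 h, so the groups overlapped and the decitabine replicates differed 7.67-fold (log2 fold change -0.13, SE 0.803). The desaturases FADS1 and FADS2 were low, at 6.54 to 50.95 and 3.83 to 14.8 normalised counts over the 11 libraries, and share exonic bases with one another.

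Among sterol synthesis enzymes, HMGCS1, SQLE and ACAT2 fell. HMGCS1, which makes HMG-CoA, stood at 1456 and 1396 normalised counts in decitabine cells, against 2581 and 3099 in DMSO cells at 120 h (log2 fold change -0.99, SE 0.153, limma adjusted p = 0.00422). SQLE, the epoxidase that acts on squalene, stood at 1136 and 1103, against 1679 and 1909 (log2 fold change -0.68, SE 0.139, limma adjusted p = 0.0139). ACAT2, the thiolase of the first step, stood at 1442 and 1481, against 2216 and 2835 (log2 fold change -0.78, SE 0.209, limma adjusted p = 0.0386). ACAT2 shares exonic bases with the more abundant TCP1 on the other strand, and no source used here states whether counting used strand.

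Of the 18 sterol enzymes, these 3 fell, 15 were not called and 0 rose. That is 16.7% called, near the 15.9% of all genes. At an unadjusted p under 0.05, 9 were lower and 0 higher, while 30.2% of all genes passed in either direction. The median log2 fold change of the 18 was -0.53. Lanosterol synthase (LSS) stood at 431 and 362 in decitabine cells, against 870 and 607 in DMSO cells, with a log2 fold change of -0.88 that missed the threshold (limma adjusted p = 0.0809). NSDHL, of sterol demethylation, missed it at a log2 fold change of -0.73 (limma adjusted p = 0.0577), and farnesyl diphosphate synthase (FDPS) at -0.53 (limma adjusted p = 0.061). Values between -0.69 and -0.19 were found for DHCR7, FDFT1, CYP51A1, PMVK, SC5D, HSD17B7, MVK, IDI1, EBP and MSMO1, which lie along the whole route. Only MVD and TM7SF2 had positive values, at 0.92 and 0.33. MVD, the decarboxylase of the mevalonate steps, stood at 260 and 214 in decitabine cells, against 236 and 64.9 in DMSO cells, so its groups overlapped.

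Within the SREBP system INSIG1 was lower and STARD4 higher in decitabine than in DMSO cells, while the genes of the factors themselves were not called. INSIG1, which holds SCAP in the endoplasmic reticulum and is itself an SREBP target, stood at 1082 and 1223 normalised counts in decitabine cells, against 1682 and 2182 in DMSO cells at 120 h (log2 fold change -0.74, SE 0.175, limma adjusted p = 0.0241). STARD4, a carrier of cholesterol between membranes and also known as an SREBP target, went the other way, at 472 and 501, against 292 and 266 (log2 fold change 0.80, SE 0.174, limma adjusted p = 0.0173). SREBF2, which encodes the factor for sterol genes, stood at 867 and 973 in decitabine cells, against 955 and 1068 in DMSO cells, and the groups overlapped (log2 fold change -0.14, SE 0.251, limma adjusted p = 0.764).

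SREBF1, whose product drives fatty-acid genes, stood at 92.9 and 103 in decitabine cells, against 107 and 147 in DMSO cells (log2 fold change -0.35, SE 0.502). SREBF1 shares exonic bases with RAI1 on the other strand. SCAP stood at 447 and 505, against 650 and 769, which missed the threshold (log2 fold change -0.57, limma adjusted p = 0.0595). INSIG2 stood at 247 and 265, against 182 and 197 (log2 fold change 0.43, limma adjusted p = 0.124). Of these 6 genes, 1 rose, 1 fell and 4 were not called (33.3% called, against 15.9% of all genes).

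Among efflux and LXR genes, ABCA1, the pump that loads cholesterol onto apolipoprotein particles, stood at 285 and 332 normalised counts in decitabine cells, against 71.4 and 70.4 in DMSO cells at 120 h. Its log2 fold change was 2.10 (SE 0.338, limma adjusted p = 0.00489), and every decitabine library was far above every DMSO library. The LXR genes themselves were not called. NR1H2 (LXR beta) stood at 315 and 251 in decitabine cells, against 332 and 304 in DMSO cells, and NR1H3 (LXR alpha) at 46.3 and 25.6, against 34.5 and 42.2, so both overlapped between groups. MYLIP, an LXR-induced ubiquitin ligase for lipoprotein receptors, stood at 257 and 230, against 313 and 262 (log2 fold change -0.24, limma adjusted p = 0.641). Of 4 tested genes of this role, 1 rose, 3 were not called and 0 fell (0 also at an unadjusted p under 0.05). That is 25% called, against 15.9% of all genes.

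Calls of HMGCS1, ACACA, SCD and ABCA1 at 120 h held with any 1 library left out and under all other settings tried. At their weakest, the calls of HMGCS1 and ABCA1 were just under the threshold, and those of ACACA and SCD were well under it. Those of SQLE, INSIG1 and STARD4 were lost without 3, 3 and 4 of the 4 libraries at 120 h, with limma adjusted p between 0.0638 and 0.17. The ACAT2 call was lost without any one library at 120 h or 6 h (limma adjusted p 0.0673 to 0.22). The number of members called lower was 3 without either decitabine 120 h library or without DMSO 120 h replicate 2, 5 without either DMSO 6 h library, and 16 without either decitabine 72 h library. With the spread of the 4 libraries at 120 h alone, limma called 14 members lower and 2 higher, beside 1924 lower and 2328 higher of all 16152 genes. All 4 of these libraries lie on the same side of the FP671120.7 split. Wherever the count of members called lower moved in these fits, that of all genes moved in the same direction.

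**Figure D2:**
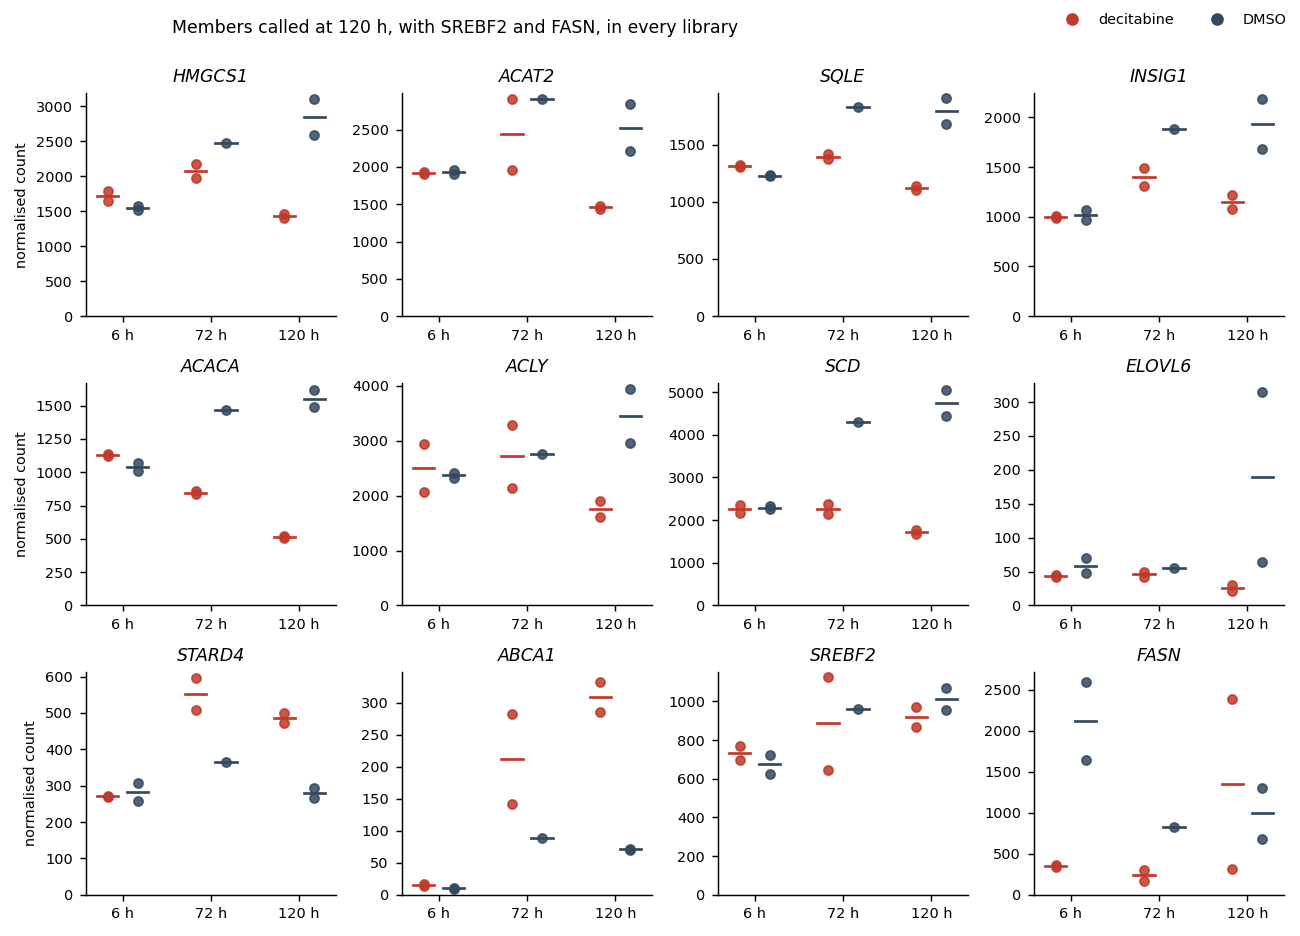
Normalised counts (y axis, from 0) of the 10 members called at 120 h, with SREBF2 and FASN, at 6, 72 and 120 h; each point is a library, each line a group mean, decitabine left of DMSO. SCD stands at 1679 and 1760 with decitabine and at 4451 and 5057 with DMSO at 120 h, while its 4 libraries at 6 h lie between 2167 and 2363.

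The promoters of 5 of these genes are shown because SCD, INSIG1 and HMGCS1 fell and ABCA1 and STARD4 rose. Each window runs from 250 bases before to 50 after the start of the gene in RefSeq (GRCh38.p14) and is written 5′ to 3′ on the strand of the gene. Capitals mark matches on either strand to CACNCCAC, a core of the sterol regulatory element bound by SREBP, and to CCAAT, the box of NF-Y, a factor that is known to work together with SREBP.
SCD, chr10:100346983-100347282, plus strand: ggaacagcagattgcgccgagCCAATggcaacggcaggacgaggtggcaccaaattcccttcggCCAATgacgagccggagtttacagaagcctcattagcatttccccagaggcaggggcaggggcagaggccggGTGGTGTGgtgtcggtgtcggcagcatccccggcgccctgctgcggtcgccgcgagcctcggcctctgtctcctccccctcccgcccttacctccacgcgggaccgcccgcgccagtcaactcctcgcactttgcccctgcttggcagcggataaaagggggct
INSIG1, chr7:155297628-155297927, plus strand: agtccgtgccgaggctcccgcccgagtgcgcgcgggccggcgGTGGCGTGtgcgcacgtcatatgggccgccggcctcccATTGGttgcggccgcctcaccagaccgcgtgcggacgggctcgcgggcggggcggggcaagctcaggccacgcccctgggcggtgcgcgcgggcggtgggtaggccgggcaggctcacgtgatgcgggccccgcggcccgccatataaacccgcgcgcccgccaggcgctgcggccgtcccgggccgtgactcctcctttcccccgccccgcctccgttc
HMGCS1, chr5:43313363-43313662, minus strand: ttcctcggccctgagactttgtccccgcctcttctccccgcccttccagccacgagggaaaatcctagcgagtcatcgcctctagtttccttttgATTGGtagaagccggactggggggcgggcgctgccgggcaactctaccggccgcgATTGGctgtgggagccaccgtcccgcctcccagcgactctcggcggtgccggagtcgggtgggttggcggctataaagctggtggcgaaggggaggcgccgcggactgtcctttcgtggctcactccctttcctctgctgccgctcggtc
ABCA1, chr9:104928106-104928405, minus strand: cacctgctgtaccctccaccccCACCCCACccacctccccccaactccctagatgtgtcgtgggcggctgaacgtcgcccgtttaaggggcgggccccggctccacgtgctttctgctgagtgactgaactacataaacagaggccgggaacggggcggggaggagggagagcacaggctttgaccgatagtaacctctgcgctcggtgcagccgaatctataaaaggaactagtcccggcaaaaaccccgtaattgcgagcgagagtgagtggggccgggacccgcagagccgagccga
STARD4, chr5:111512486-111512785, minus strand: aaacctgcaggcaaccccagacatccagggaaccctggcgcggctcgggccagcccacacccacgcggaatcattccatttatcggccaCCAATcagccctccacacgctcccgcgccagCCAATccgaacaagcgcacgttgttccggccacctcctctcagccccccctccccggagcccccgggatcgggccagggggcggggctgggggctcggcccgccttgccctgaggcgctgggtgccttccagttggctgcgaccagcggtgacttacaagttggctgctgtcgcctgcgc
The core was found once each in SCD, INSIG1 and ABCA1, and the NF-Y box was found 2 times in SCD, 1 time in INSIG1, 2 times in STARD4 and 2 times in HMGCS1, for which 1 of 2 RefSeq windows is shown. Genes that fell and genes that rose thus both held matches. RefSeq gave 44 windows for 31 of the 36 members. CCAAT was held by 26 of these 44 windows (59.1%), against 34.6% of all 35116 windows of the table. CACNCCAC was held by 8 of 44 (18.2%), against 5.87%, and the E-box CACGTG by 6 of 44 (13.6%), against 7.26%. The exact consensus of the LXR direct repeat, a pair of AGGTCA half-sites spaced by 4 bases, was in 0 of 44 windows. It was in only 7 of all 35116 windows (0.0199%), so that 0 among members could be foreseen. Repeats with a mismatch were not searched, so no absence of LXR sites follows, for ABCA1 or any other member. Members with several starts contribute overlapping windows, and a match is a description of letters only.

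At 6 h, after the first addition, no lipid synthesis gene was called between decitabine and DMSO cells. SCD stood at 2167 and 2363 normalised counts, against 2322 and 2258, HMGCS1 at 1789 and 1650, against 1577 and 1523, and ABCA1 at 12.98 and 16.4, against 10.86 and 9.06. Limma called 0 of 35 members and 0% of all 16152 genes, 3.35% of which had an unadjusted p under 0.05. The member with an unadjusted p under 0.05 was FASN, at 365 and 340 in decitabine cells, against 2600 and 1650 in DMSO cells (log2 fold change -2.55, SE 0.803, limma unadjusted p = 0.0122, adjusted p = 1). Over all times FASN varied between 173 and 2600 with replicates up to 7.67-fold apart, and the cause was not tested. The median over members was 0.01, with 18 positive and 17 negative. Every decitabine library lay above every DMSO library in 9 members (18.2% of all genes) and below in 2 (20.8% of all genes).

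The other genes named above mostly overlapped between the groups at 6 h. ACLY stood at 2065 and 2948 normalised counts in decitabine cells, against 2420 and 2326 in DMSO cells. ACAT2 stood at 1931 and 1909, against 1908 and 1964, and INSIG1 at 985 and 1006, against 971 and 1071. STARD4 stood at 269 and 272, against 307 and 258. In these 4 genes the groups overlapped.

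SREBF1 stood at 32.4 and 20 in decitabine cells at 6 h, against 15.5 and 48.9 in DMSO cells, and SREBF2 at 768 and 699, against 625 and 725. NR1H2 stood at 233 and 275, against 273 and 291. These 3 overlapped as well. ACACA stood at 1124 and 1134, against 1066 and 1011, SQLE at 1306 and 1318, against 1225 and 1234, and NR1H3 at 57.8 and 40.1, against 31.7 and 37, with both decitabine libraries above both DMSO libraries. ELOVL6 stood at 41.4 and 45.6, against 47.8 and 69.7, with both below.

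At 72 h SCD was the member called. It stood at 2387 and 2134 normalised counts in decitabine cells, against 4295 in the DMSO library (log2 fold change -0.93, SE 0.18, limma adjusted p = 0.0416). The call did not survive 8 of the 10 single-library omissions, and against all 5 DMSO libraries the log2 fold change was -0.62 (limma adjusted p = 0.177). ACACA stood at 839 and 857, against 1465, and missed the threshold (log2 fold change -0.79, SE 0.169, limma adjusted p = 0.0568). Limma called 2.86% of members and 2.19% of all genes (1.88% higher and 0.31% lower), so the share of members called was near that of all genes. Each decitabine library lay below the DMSO library in 17 members (27.6% of all genes) and above it in 7 (37.5% of all genes). In 25 of 35 members (71.4%) the log2 fold change was negative, against 44.4% of all genes, and the median was -0.28, against 0.09.

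HMGCS1 stood at 1972 and 2177 in decitabine cells at 72 h, against 2471 in the DMSO library, SQLE at 1374 and 1415, against 1826, and INSIG1 at 1314 and 1489, against 1881. ELOVL6 stood at 42.2 and 49.2, against 55.9, and FASN at 298 and 173, against 830. SREBF1 stood at 131 and 89.1, against 171, and NR1H3 at 23.8 and 30.9, against 48.1. In these 7 genes both decitabine libraries lay below the DMSO library, and none was called. ACAT2 stood at 1961 and 2912, against 2903, ACLY at 2144 and 3290, against 2751, SREBF2 at 1128 and 648, against 960, and NR1H2 at 280 and 411, against 310. In these 4 the DMSO library lay between the decitabine libraries.

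ABCA1 stood at 283 and 143 in decitabine cells at 72 h, against 89.1 in the DMSO library, and was not called (log2 fold change 1.16, limma adjusted p = 0.192). STARD4 stood at 508 and 596, against 365 (log2 fold change 0.59, limma adjusted p = 0.195). In both genes each decitabine library was above the DMSO library. HSD17B7, of sterol demethylation, stood at 217 and 480, against 200, so that the decitabine replicates went apart. FADS1 stood at 28.2 and 50.95, against 13.6, and TM7SF2 at 79.7 and 91.3, against 32.8, neither of them called. A fit without either decitabine 72 h library sets 1 decitabine library against 1 DMSO library. Its spread comes from the other groups alone, so it is no check on replicates at 72 h.

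The difference between the effects at 120 h and 6 h was tested as a contrast in the same fit. It was called for 3 of 35 members, SCD, ACACA and HMGCS1, and for 5.9% of all genes (4.27% higher and 1.63% lower). For ACACA the effect was lower at 120 h than at 6 h by -1.72 on the log2 scale (SE 0.196, limma adjusted p = 0.00328). The HMGCS1 call was lost in 7 of 11 fits that omit a library (limma adjusted p up to 0.112), and the SCD call without decitabine 120 h replicate 1 (limma adjusted p = 0.0571). ABCA1 missed the threshold in this contrast (1.59 on the log2 scale, limma adjusted p = 0.0952). Between 120 h and 72 h limma called 0 members and 0% of all genes. There 3 of 35 members and 6.33% of all genes had an unadjusted p under 0.05. Between 72 h and 6 h limma called 0 members and 0.613% of all genes (0.557% higher and 0.0557% lower). There 4 of 35 members and 14.5% of all genes had an unadjusted p under 0.05.

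DMSO cells were also compared between times, and no gene passed the threshold between 120 h and 6 h. SCD stood at 4451 and 5057 normalised counts in DMSO cells at 120 h, against 2322 and 2258 in DMSO cells at 6 h, and HMGCS1 at 2581 and 3099, against 1577 and 1523. INSIG1 stood at 1682 and 2182, against 971 and 1071. In 31 of 35 members the log2 difference between 120 h and 6 h in DMSO was positive (88.6%), against 48.3% of all genes, including all 18 sterol synthesis enzymes, and the median was 0.53, against -0.01 over all genes. In 25 members every library at 120 h lay above every library at 6 h, which held for 20.4% of all genes, and in 2 below (23.3% of all genes).

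The DMSO libraries at 120 h and 6 h lie on opposite sides of the FP671120.7 split, at 8.08 and 10.86% of counts at 120 h, against 0.794 and 0.493% at 6 h. Mitochondrial transcripts took 0.938 and 1.09% at 120 h, against 0.405 and 0.395% at 6 h. The part of this split in the values of the lipid genes was not tested. Limma called 0 of 35 members and 0% of all genes, while 16 members and 5.36% of all genes had an unadjusted p under 0.05, all 16 of these members with positive values. By its unadjusted p, ABCA1 ranked 1 and SCD 3 among the 16152 genes, HMGCS1 12 and INSIG1 22. ABCA1 stood at 71.4 and 70.4 at 120 h, against 10.86 and 9.06 at 6 h in DMSO cells (log2 difference 2.72, SE 0.338, limma adjusted p = 0.366). With sample weights limma called 2 members higher (ABCA1 and SCD), beside 2 higher and 1 lower of all 16152 genes. SREBF1 stood at 107 and 147, against 15.5 and 48.9, a ratio of means of 3.94. The DMSO 72 h library held SCD at 4295, HMGCS1 at 2471 and INSIG1 at 1881. It lay above both DMSO 6 h libraries in 28 of 35 members (32.4% of all genes) and below both in 5 (38.4% of all genes). Limma called 0 members and 0% of all genes here, with 10 members and 2.82% of all genes at an unadjusted p under 0.05.

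This comparison and that of decitabine at 120 h share the DMSO 120 h libraries, so their values are given side by side only. Set against the mean of DMSO cells at 6 h, SCD was at 0.751 times that level in decitabine cells at 120 h and at 2.08 times in DMSO cells at 120 h. HMGCS1 was at 0.92 and 1.83 times, SQLE at 0.91 and 1.46 times and INSIG1 at 1.13 and 1.89 times, in the same order. ACACA was at 0.493 and 1.5 times and ACLY at 0.74 and 1.46 times. Of the members that fell, HMGCS1, SQLE and INSIG1 were thus near the DMSO 6 h level in decitabine cells at 120 h, and ACACA and ELOVL6, at 0.493 and 0.44 times, were well under it. ABCA1 was at 31 times in decitabine cells and at 7.12 times in DMSO cells. STARD4 was at 1.72 times in decitabine cells and at 0.988 times in DMSO cells.

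**Figure D3:**
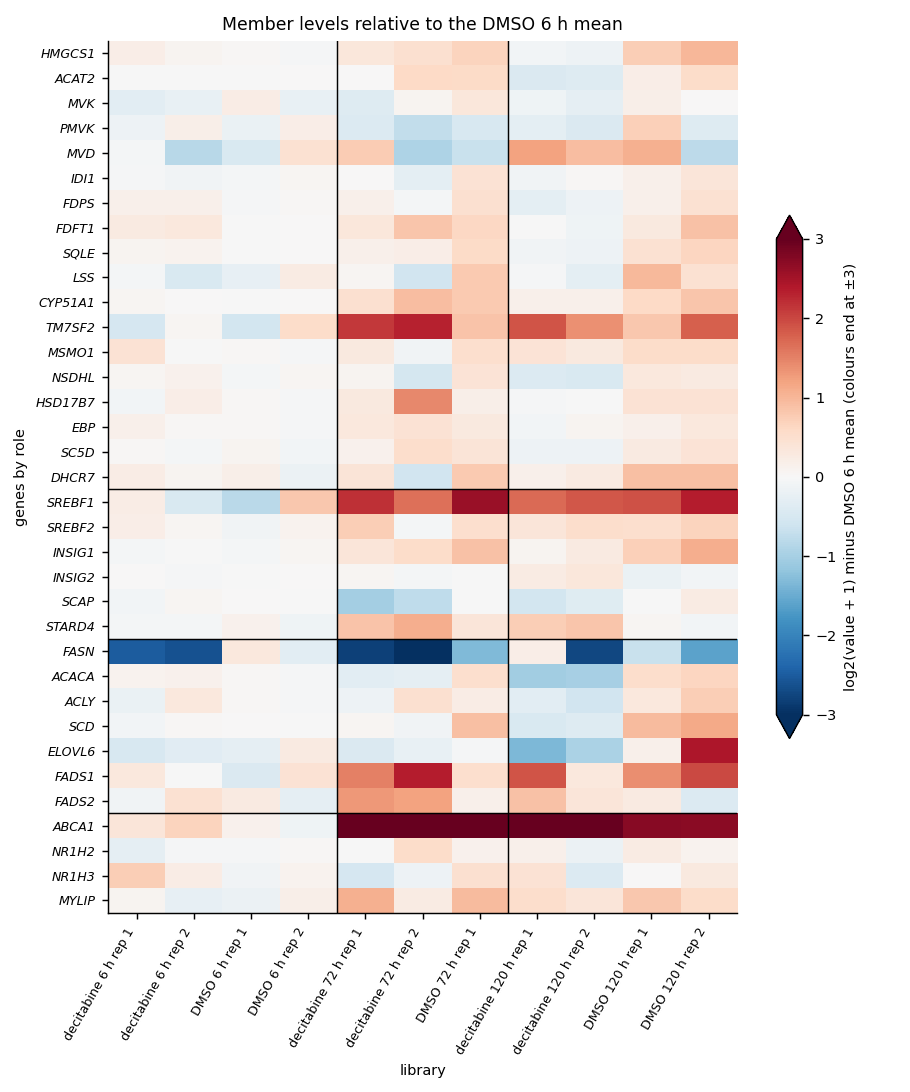
Levels of the 35 tested members in each of the 11 libraries as log2(value + 1) minus the DMSO 6 h mean, rows by role and columns by time with decitabine left of DMSO. The DMSO columns at 120 h are mostly red for sterol enzymes and SCD, the decitabine columns at 120 h are pale or blue for most of the same genes (MVD and TM7SF2 are red), and ABCA1 is red in all later libraries.

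Between 72 h and 120 h of decitabine, no member was called (limma, 0 of 35, against 0.13% of all genes, of which 0.124% higher and 0.00619% lower). An unadjusted p under 0.05 was found for 12 of 35 members and 16.4% of all genes. ACACA stood at 503 and 520 at 120 h, against 839 and 857 at 72 h, and HMGCS1 at 1456 and 1396, against 1972 and 2177, so that the libraries did not overlap. In 17 members every library at 120 h lay below every library at 72 h, which held for 21.4% of all genes, and in 6 every one lay above (23.3% of all genes).

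The members varied together in blocks over the 11 libraries. These correlations describe libraries that share treatment, time and depth, and carry no test. HMGCS1 and SQLE were most like one another, with a Pearson r of 0.97 and a Spearman rho of 0.973 on the log2(value + 1) scale. SCD was most like SQLE (r = 0.956, rho = 0.809), ACAT2 most like SC5D (r = 0.939, rho = 0.873) and SREBF1 most like MYLIP (r = 0.895, rho = 0.936). INSIG2 was the least like partner of many enzymes, with r = -0.886 to ACACA. STARD4 was most like FADS2 (r = 0.837) and least like SCAP (r = -0.883), and ABCA1 was most like TM7SF2 (r = 0.849) and had r = -0.082 with SCD.

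**Figure D4:**
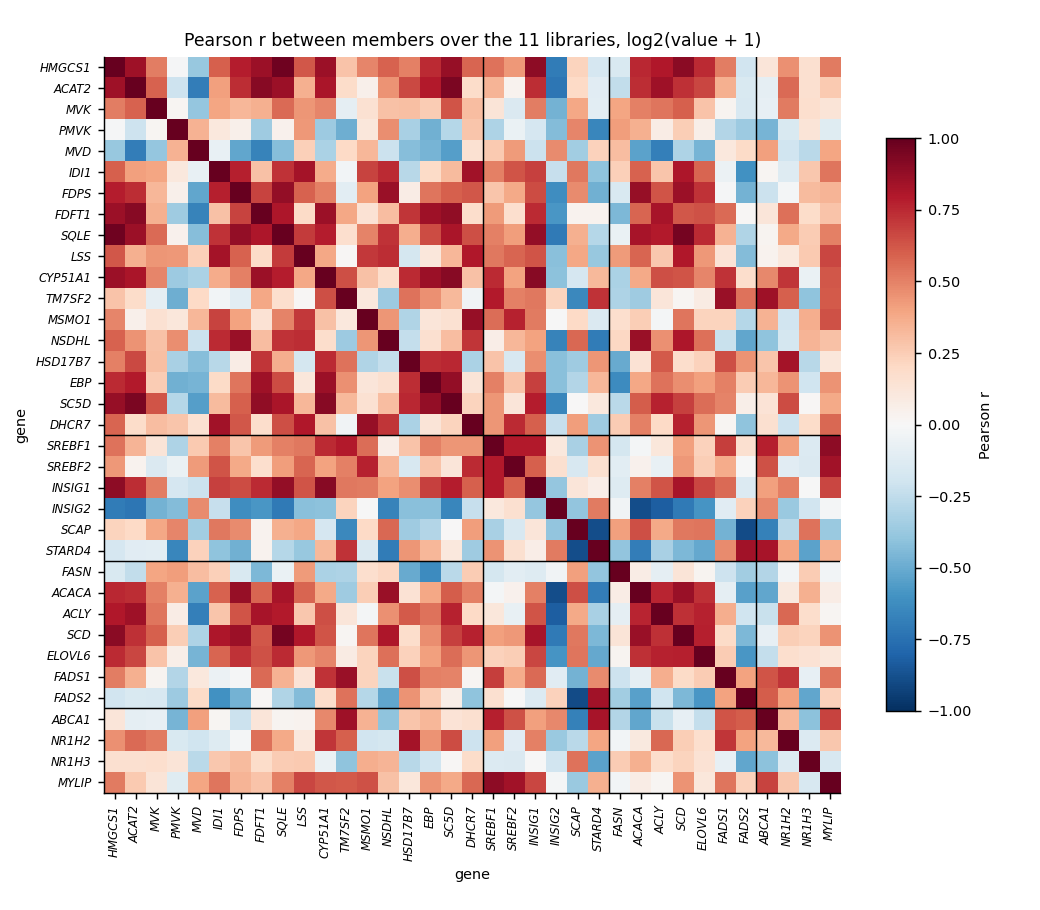
Pearson r between the 35 tested members over the 11 libraries (log2(value + 1)), genes on both axes by role, colours from -1 to 1. HMGCS1, ACAT2, SQLE, INSIG1, ACACA and SCD are red against one another, INSIG2 is blue against most of them, and FASN and NR1H3 are pale in most cells.

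Levels of different genes can be compared only per length. In normalised counts per kb of exonic length (GENCODE 29, mean of the 5 DMSO libraries), CYP51A1, which removes a methyl group from lanosterol, was highest at 911, followed by SCD at 686, FDPS at 557, ACLY at 552 and ACAT2 at 550. FDPS, ACLY and ACAT2 are not separated at this precision. SREBF2 was at 115 and SREBF1 at 12.2 per kb, NR1H2 at 80.4 and NR1H3 at 8.54, and ABCA1 at 4.42. In GRCh38 coordinates of GENCODE 29, SCD lies on chromosome 10 from 100347124 to 100364834, HMGCS1 on chromosome 5 from 43289395 to 43313512, ACACA on chromosome 17 from 37084988 to 37406818, and ABCA1 on chromosome 9 from 104781002 to 104928237. HSD17B7 has namesake pseudogenes that averaged 67.4 normalised counts in sum, against 223 for the gene, so its value is uncertain.

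A further 90 genes of neighbouring pathways, none of them members, were listed by role, and 79 were tested. At 120 h 9 rose, 6 fell and 64 were not called (19% called, against 15.9% of all genes), with a median of -0.02. Of 13 tested genes tied to LXR, 3 rose and 1 fell (median 0.52), of 12 for sterol storage and transport 2 rose and 2 fell, and of 28 further fatty-acid genes 3 rose and 2 fell. Of 12 genes of the isoprenoid branch 1 fell and 0 rose, and of 14 further sterol genes 1 rose and 0 fell, with 1 higher and 2 lower at an unadjusted p under 0.05 in each of these 2 lists.

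ABCA7, a lipid transporter related to ABCA1, stood at 327 and 245 normalised counts in decitabine cells, against 51.1 and 53.0 in DMSO cells at 120 h (log2 fold change 2.42, limma adjusted p = 0.0166). SMPDL3A, an LXR-induced phosphodiesterase, stood at 94.6 and 85.3, against 28.3 and 18.4 (log2 fold change 1.93, limma adjusted p = 0.0134). Malic enzyme (ME1), a source of NADPH, stood at 89.6 and 72.7, against 27.9 and 20.9 (log2 fold change 1.70, limma adjusted p = 0.0102). Each of these 3 was higher in both decitabine libraries. Lipoprotein lipase (LPL), the gene that fell among those tied to LXR, stood at 357 and 319, against 849 and 1013 (log2 fold change -1.46, limma adjusted p = 0.00111). SCARB1, a receptor for high-density lipoprotein, stood at 176 and 169, against 526 and 406 (log2 fold change -1.42, limma adjusted p = 0.00256). SOAT1, which esterifies cholesterol for storage, stood at 224 and 161, against 437 and 424 (log2 fold change -1.18, limma adjusted p = 0.0175). These were the 3 highest and 3 lowest of the 15 called.

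Many, but not all, markers of differentiated myeloid cells were also higher in decitabine cells at 120 h. Of 15 monocyte and macrophage markers, 9 were tested and 7 rose at 120 h. Their summed level was 3566 to 3596 normalised counts in decitabine cells, against 1004 to 1076 in DMSO cells at 120 h, and 2202 to 2835, against 891, at 72 h. In DMSO cells this sum was 877 to 914 at 6 h, 891 at 72 h and 1004 to 1076 at 120 h. CD68 and FCGR1A held most of it, at 579 and 372 normalised counts in DMSO 120 h replicate 1. C1QB and C1QC were at 0 in all 11 libraries, and C1QA, MRC1 and CD163 were between 0 and 3.99. Of 11 eosinophil markers, 10 rose at 120 h, with sums of 133800 to 144000, against 19830 to 22170. PRG2 alone held 108100 and 118400 in decitabine cells. Of 11 tested neutrophil markers 5 rose and 1 fell, with 7 positive and 4 negative values. Their list summed to 5936 to 6170, against 964 to 1107, with S100A12 alone at 3878 and 4076 in decitabine cells. LTF was lower, at 9.73 and 13.1, against 29.7 and 34.0, and MMP8 at 2.97 and 2.36, against 30 and 12.8. Of 4 tested lymphoid markers 3 rose, and all 7 in the list summed to 769 to 794, against 77.8 to 79.7. The part of these shifts in the values of the lipid genes was not tested.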

How the data were processed

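RNA of HL-60 cells was depleted of ribosomal RNA and read as single-end 50 bp stranded libraries, per the labels' protocols. The submitters' processing notes list Salmon 1.2.1, featureCounts, STAR, limma and DESeq2 and the build hg38, without saying what each was used for. Values deposited by the authors are a normalised signal, named as DESeq2-normalised counts. In the low range 59.2 to 62.1% of values were whole multiples (within 0.01) of a library step of 0.407 to 0.961. The values are therefore not plain counts over 1 factor per library, and no count model was run. The heading holds 13 names over 13 fields, 2 of which are identifier and symbol, so 12 library names stand over 11 value columns, and DMSO 72 h replicate 2 was not analysed here.

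Values were set to log2(value + 1), on which fold changes of low genes are understated, and genes reaching 10 in 2 or more libraries were tested. Limma 3.58.1 in R 4.3.3 (one mean per group, eBayes with a trend, 5 residual degrees of freedom, 8.42 with those borrowed) gave two-sided p-values, adjusted by Benjamini-Hochberg over all 16152 genes. The fit was tried on simulated counts with an equal spread in every library, and only the 120 h comparison was read there. The fit assumed that the lone DMSO 72 h library varies like the others, which the simulation did not test. All 36 members were accounted for; values in every library were given for those called at 72 or 120 h and for SREBF1, SREBF2, INSIG1, NR1H2, NR1H3 and the 3 smallest changes, and of neighbouring genes the 3 highest and 3 lowest called were named. Further members were named after their values were seen. Members and lists were chosen with earlier results of these data known. Plots used matplotlib 3.10.9.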

Additional observations from a re-analysis of the deposited data

Results flagged for a closer look

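The effect of decitabine differed between 120 h and 6 h for 3 members, by the contrast of both effects in limma. The difference, as the effect at 120 h minus that at 6 h on the log2 scale, was -1.72 for ACACA (adjusted p = 0.00328), -1.45 for SCD (adjusted p = 0.00791) and -1.14 for HMGCS1 (adjusted p = 0.0228), and in each gene both decitabine libraries lay below both DMSO libraries at 120 h. The HMGCS1 call was lost in 7 of 11 fits that omit a library, namely any one at 6 h, either decitabine library at 120 h or DMSO 120 h replicate 2, and in the fit without a trend (adjusted p 0.051 to 0.112 in these 8). The SCD call was lost without decitabine 120 h replicate 1 (adjusted p = 0.0571), and that of ACACA held in all 11. With 1 library left out, the number of members called lower in this contrast changed in most fits, and so did that over all genes.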

How the results depend on the processing

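At 120 h, 8 members were called lower. This count was 5 without the filter on low values (725 of all genes called lower) and 4 with eBayes without a trend (742 genes). It was 16 with array weights (2322 genes) and 14 with the spread of the groups compared (1924 genes). Chosen after seeing the data, the 5 libraries rich in FP671120.7 gave a count of 14 (2007 genes). With 1 library left out the count of members called lower moved in the same direction as that of all genes. At 72 h 1 member was called lower, beside 50 of all genes. This count became 2 without the filter (162 genes), with a filter of 50 (63 genes) or with quantile normalisation (97 genes). It was 3 with libraries scaled to one total (112 genes) or against all DMSO libraries (1187 genes, with 2 members and 1730 genes higher). It was 0 without a trend (33 genes), with array weights (5 genes) or with the groups compared alone (0 genes). It was also 0 with the replicate block (21 genes), which changed no other count of members. Replicate numbers do not pair these wells, since the correlations of replicate differences between groups were -0.078 to 0.124. With a library left out, the numbers of members called at 72 h moved with those over all genes. For the effect at 120 h minus that at 6 h, array weights or the groups compared alone gave 12 lower and 2 higher, and left-out libraries 1 to 12 lower and 0 to 2 higher. Left-out libraries gave 0 to 5 lower and 0 to 1 higher for 72 h minus 6 h, 0 to 6 lower and 0 to 1 higher for 120 h minus 72 h, 0 to 9 lower and 0 to 3 higher for decitabine at 120 h against 72 h (1 lower without the filter), and 0 to 2 higher for DMSO at 120 h against 6 h (2 with array weights). For DMSO at 72 h against 6 h, 1 member was called higher without the filter and with array weights. No called member changed sign. Members not called changed sign in 38, 23 and 8 of the alternative values at 6, 72 and 120 h. Scaling to one total moved the median of all genes at 120 h to 0.187, and quantile normalisation to -0.097, from 0.07 as deposited, with member medians of -0.37, -0.55 and -0.49 in that order. At 72 h the share of higher genes among calls was 85.8%, 74.5% with quantile normalisation and 68.4% with one total. One count was worth an estimated 0.961 normalised units at most, which limits FADS2 and ABCG1.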
